A study of Mus musculus with 8 samples.

Results

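Cell division depends on kinesin motors that build the mitotic spindle, on centromere and kinetochore proteins that attach chromosomes to it, on condensin and cohesin, which shape and pair the chromosomes, and on cyclin-dependent kinases (CDKs) with their cyclins and inhibitors. Many of these genes are transcribed only in part of the cycle. E2F sites near their promoters are known for expression from the G1/S border onwards, and CCAAT boxes with a CHR element (cell-cycle genes homology region) for expression in G2 and mitosis. In neural progenitors D-type cyclins link growth factor signals to the cycle, and CDK inhibitors accumulate as cells leave it. The same gene families also hold members with other work, such as kinesins that carry cargo along axons and CDKs that act in transcription.

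The genes described here are the 108 protein-coding genes, of 9140 genes in the matrix, whose symbols belong to these families (Kif, Cenp, Ccn, Cdk, Cdkn, Cdc2x, Bub, Plk, Ncap, Smc, Stag, Anapc and Cep). Smc2 and Smc4 were left out by the rule. By role they were 2 mitotic kinesins, 19 transport and other kinesins, 8 centromere and kinetochore genes, 2 genes of the checkpoint and mitotic kinase group (Bub3 and Plk4), 4 condensin subunits, 6 cohesin and Smc5/6 genes, 12 subunits of the anaphase-promoting complex (APC/C), 2 D cyclins, 2 G cyclins, 6 genes named after CDK inhibitors, 13 other CDKs and CDK-associated genes, Cdc25a and 31 centrosomal Cep genes. A set of 16 of them (mitotic kinesins, centromere and kinetochore, checkpoint and mitotic kinases, condensin) is called the mitotic set. Roles were assigned by symbol, so the centromere and kinetochore genes and the mitotic set include Cenpj, a centriole protein. The A, B and E cyclins and the CDKs that drive the cycle are not analysed here, so the family name is wider than the cell-cycle machinery measured.

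The cells were neural stem and progenitor cells (NPCs) cultured from the dentate gyrus of littermate embryos of C57BL/6J mothers and Kmt2d+/βgeo fathers. The labels give embryonic day 18, whereas the study's methods give the day before. Kmt2d+/βgeo cells carry 1 gene-trap allele, Mll2Gt(RRt024)Byg, of Kmt2d, a histone H3 lysine methyltransferase, and are a model of Kabuki syndrome. The wild type group is labelled with the strain name C57BL/6J. Both genotypes were kept with EGF and FGF2 at day 0 and collected 2, 4 and 8 days after these growth factors were removed, with 1 droplet library (10x Genomics 3′, version 3) per genotype and day. With 1 library per group no difference has a replicate check, no test was run, and culture, animal and genotype cannot be told apart. Intervals given below cover counting error only.

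The 8 libraries held 2534 to 4900 cells, with median depths on the matrix genes from 3972 UMIs (unique molecular identifiers, each marking 1 captured RNA molecule) in the Kmt2d+/βgeo day 8 library to 11230 in the Kmt2d+/βgeo day 0 library. From 0 to 10 cell barcodes were shared by any pair of libraries. The day 4 libraries of the 2 genotypes stood apart from the other pairs, with 0 of 7459 genes past a 2-fold difference, so the library labelled Kmt2d+/βgeo at day 4 was nearly the same as the one labelled wild type, and agreement of the genotypes at day 4 is no independent repeat. Between genotypes the log2 ratios over all genes ran from -2.15 to 5.12 at day 0 and from -3.56 to 5.60 at day 2. They ran from -3.22 to 5.51 at day 8, but only from -0.891 to 0.565 at day 4. Whether that label is right was not tested. Each Kmt2d+/βgeo value at day 4 below, including its comparisons with day 0, is that of the library so labelled. Kmt2d itself had mean normalised counts of 0.193, 0.171, 0.295 and 0.290 in the Kmt2d+/βgeo libraries and 0.157, 0.197, 0.237 and 0.241 in the wild type libraries at days 0, 2, 4 and 8. It was not lower in the Kmt2d+/βgeo library at days 0, 4 and 8. Whether 3′ tags can see the trap was not tested, so this gene checks no label. The summed level of 5 astrocyte genes went from 23.7 and 17.1 at day 0 to 226 and 177 at day 2 in Kmt2d+/βgeo and wild type, and stood at 107 and 249 at day 8. Within it Apoe went from 14.1 and 5.88 to 209.7 and 149.8, and Slc1a3 from 7.97 and 9.64 to 14.1 and 23.3. The other 3 genes, Aldh1l1, Gja1 and S100b, were also higher at day 2 than at day 0 in both genotypes, S100b in Kmt2d+/βgeo by the least (0.799 and 0.867). The sum of 3 neuron genes stayed between 3.07 and 4.46 in all 8 libraries and was mostly Map2. The neuronal nuclear protein gene Rbfox3 stood at 0.0054 and 0.0174 at day 0 and at 0.170 and 0.176 at day 4. The sum of 4 neural progenitor genes on days 0, 2 and 8 was 71.8, 128 and 66.3 in Kmt2d+/βgeo and 60.2, 94.99 and 109 in wild type. Olig2, of the oligodendrocyte lineage, was 5.53 and 8.09 at day 0 and 1.48 and 0.911 at day 8. Their part in the results below was not tested.

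Promoter windows are shown first, because several of the members with the largest differences carried letters known from cell-cycle promoters. RefSeq windows (GRCm38.p6, 250 bases before to 50 after a gene's start) matched 93 of the 108 members by symbol, with 116 windows. The letters searched on both strands for CHR were TTTGAA. A second form of CHR, TTCGAA, was searched too. For the CCAAT box they were those of its name, which read ATTGG on the other strand. For E2F they were TTTGGCGC, TTTCCCGC, TTTCGCGC and TTTGCCGC. The lines below give the 250 bases before the start of 4 members that were lower after growth factor withdrawal, and of Kif1c, which was higher, 5′ to 3′ in the direction of the gene, with capitals on the matched letters.
Kif11, chr19:37376132-37376381, plus strand: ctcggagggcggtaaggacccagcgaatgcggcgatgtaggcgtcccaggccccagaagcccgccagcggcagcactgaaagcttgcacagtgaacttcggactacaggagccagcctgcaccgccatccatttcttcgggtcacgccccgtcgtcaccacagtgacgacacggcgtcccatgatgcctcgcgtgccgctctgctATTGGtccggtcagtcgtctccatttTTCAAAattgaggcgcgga
Ncapd2, chr6:125191587-125191836, minus strand: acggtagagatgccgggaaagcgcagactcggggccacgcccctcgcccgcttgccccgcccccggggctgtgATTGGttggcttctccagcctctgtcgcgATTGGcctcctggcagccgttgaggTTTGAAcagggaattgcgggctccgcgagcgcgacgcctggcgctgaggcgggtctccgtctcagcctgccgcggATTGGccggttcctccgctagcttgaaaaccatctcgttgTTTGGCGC
Kif18a, chr2:109280488-109280737, plus strand: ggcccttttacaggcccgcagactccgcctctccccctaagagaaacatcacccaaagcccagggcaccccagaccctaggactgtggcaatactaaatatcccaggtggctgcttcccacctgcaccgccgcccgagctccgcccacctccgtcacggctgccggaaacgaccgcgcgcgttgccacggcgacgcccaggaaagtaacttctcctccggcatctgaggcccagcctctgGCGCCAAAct
Cdc25a, chr9:109875329-109875578, plus strand: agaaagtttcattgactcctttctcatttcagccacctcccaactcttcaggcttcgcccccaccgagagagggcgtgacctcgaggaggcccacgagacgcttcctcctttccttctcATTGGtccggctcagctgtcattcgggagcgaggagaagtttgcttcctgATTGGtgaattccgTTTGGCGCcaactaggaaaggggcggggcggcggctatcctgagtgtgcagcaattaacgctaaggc
Kif1c, chr11:70700298-70700547, plus strand: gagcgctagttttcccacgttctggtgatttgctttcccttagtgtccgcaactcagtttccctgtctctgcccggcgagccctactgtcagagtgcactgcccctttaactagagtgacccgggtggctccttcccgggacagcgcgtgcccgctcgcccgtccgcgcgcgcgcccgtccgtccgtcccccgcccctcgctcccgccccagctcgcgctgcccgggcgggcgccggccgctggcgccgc

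The Kif11 window held a CCAAT box starting 45 bases before the start and a CHR starting 19 bases before it, both read on the opposite strand. The Ncapd2 window held all of the motifs, with CCAAT boxes at 177, 148 and 48 bases, a CHR at 123 bases and an E2F match at 8 bases before the start. Kif18a and Cdc25a held E2F matches at 10 and 67 bases before the start, and the Kif1c window held none of the letters searched. These windows were picked for display, so the contrast with Kif1c is no result. Other members that were higher in at least 1 comparison with day 0 did hold such letters. Kif1a held CHR, Kif1b, Cdkn2c and Ccng1 held CCAAT, and Cdkn2a held CCAAT and E2F letters. Over all windows, E2F letters stood in 11 of 116 windows of members (9.48%) and in 744 of 32851 windows of all genes (2.26%). Among the 16 members lower at day 2 in both genotypes (given below), 15 had windows, and E2F letters stood in 7 of their 20 windows (Anapc15, Cdc25a, Cenps, Kif18a, Ncapd2, Ncapg2 and Smc1a), compared with 4 of 96 windows (4.17%) of the other members. CHR letters stood in 5 of these 20 windows (25%) and in 19.2% of windows of all genes, and CCAAT in 9 of 20 (45%) and in 37.4%. The 12 members varying most along cell-cycle position at day 0 (R2 of at least 0.2, explained below) had 17 windows. Of these, 7 held CHR letters (41.2%), 10 held CCAAT (58.8%) and 5 held E2F letters (29.4%). These sets were picked by values of these data and hold few windows, so no difference is read from their shares. In the transport and other kinesins CCAAT letters stood in 5 of 18 windows, CHR letters in 1 (Kif1a) and E2F letters in 0, too few windows to read a difference from for E2F. A match describes letters in a window and is no measured site.

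**Figure D1:**
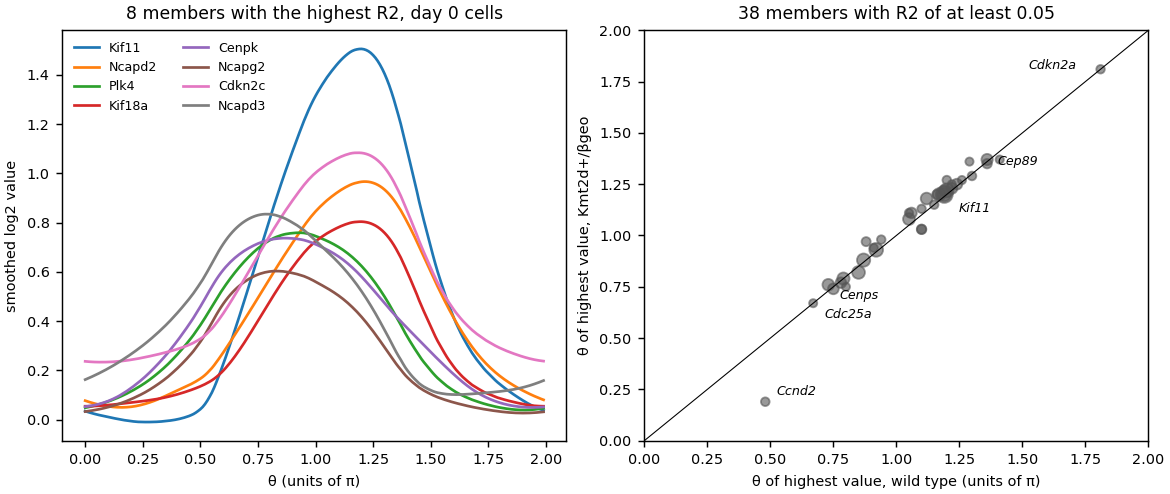
Members along cell-cycle position in day 0 cells. Left, smoothed log2 value (y axis) against θ in units of π (x axis) for the 8 members with the highest R2. Ncapd3, Ncapg2, Cenpk and Plk4 peaked before π and Kif11, Ncapd2, Kif18a and Cdkn2c after it. Right, θ of highest value in the wild type (x axis) and Kmt2d+/βgeo (y axis) library for the 38 members with R2 of at least 0.05, with larger points for higher R2 and the line of equality. The point away from the line is Ccnd2.

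To ask which members vary through the cycle while cells divide, the 9188 cells of both day 0 libraries were placed on a cell-cycle position θ, the polar angle on the first 2 principal components of 39 S and G2/M genes, none of them a member. These components held 41.1% and 9.74% of the variance. A periodic loess curve of each member on θ then gave the position of its highest value and R2, the share of its variance along the curve. As landmarks, the replication genes Mcm6 and Nasp peaked at 0.63π and 0.71π, the condensin core genes Smc2 and Smc4 at 1.06π and 1.14π, and Top2a, a DNA topoisomerase, at 1.09π. These 5 landmarks are themselves cell-cycle genes used to build or orient the axis, so their order describes the scale and is not a result.

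Peaks are described for the 38 members with R2 of at least 0.05, since the peak of a nearly flat curve has little meaning. R2 was computed for the members and the landmark genes alone. No share over all genes can therefore be set beside counts by R2, here or below. They were spread over θ, and several roles shared positions. The earliest of the 38 was Ccnd2, the D cyclin, at 0.35π, followed by Cdc25a, a phosphatase that switches on CDKs, at 0.67π. A group of 7 of them peaked from 0.7π to below 0.9π, with Cenps (0.74π), the Smc5/6 and cohesin genes Smc6 (0.75π), Smc3 (0.77π) and Smc5 (0.78π), the condensin II genes Ncapd3 (0.79π) and Ncapg2 (0.83π), and Cenpk (0.87π), a protein of the inner kinetochore. Another 8 peaked from 0.9π to below 1.1π, among them Plk4 (0.92π), the kinase that starts centriole duplication, and the cohesin gene Smc1a (1.05π). The largest group, 16 members, peaked from 1.1π to below 1.3π. It held Bub3 (1.15π), of the spindle checkpoint, Kif11 (1.2π), the motor that separates spindle poles, Kif18a (1.2π), which limits chromosome oscillations on the spindle, Ncapd2 (1.21π), of condensin I, Cenpp (1.23π) and Cenpc1 (1.24π), which links centromeric chromatin to the kinetochore. Last among the 38 came Ccng1 (1.32π), Cep70 (1.35π), Cep89 (1.36π), Cdk2ap1 (1.39π) and Cdkn2a (1.81π). Within condensin, the subunits of condensin II therefore did not share 1 position, since Ncaph2 peaked at 1.21π, with Ncapd2.

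The curves of the leading members were steep. Kif11 had the highest R2 (0.62), and its smoothed log2 value ran from about 0 (-0.01) at its lowest to 1.51 at its highest. R2 was 0.38 for Ncapd2, 0.37 for Plk4, 0.36 for Kif18a, 0.33 for Cenpk, 0.30 for Ncapg2, 0.29 for Cdkn2c, an inhibitor of Cdk4 and Cdk6, and 0.27 for Ncapd3. Ccnd2 differed from these in that its curve stayed high at all positions, between 2.48 and 3.49 in log2 value, with an R2 of 0.075. The peaks came out alike in the 2 libraries, within 0.1π for 37 of the 38 members with R2 of at least 0.05 and within 0.03π for the 8 leading ones. The exception was Ccnd2, with its highest value at 0.19π in the Kmt2d+/βgeo library and 0.48π in the wild type library. Since θ was learned, and the 38 chosen, on the cells of both libraries together, this likeness is no independent repeat. At the other end, 45 members had R2 below 0.01, and these included 16 of the 19 transport and other kinesins. No minimum level was set for R2, and mean log2 values of these 16 ran from 0.0055 (Kif6) to 1.71 (Kif1b). At the lowest levels a low R2 cannot tell a level curve from too few counts. The study reports that total UMIs per cell vary along its cell-cycle position. The values used here were scaled to the same sum over the matrix genes in every cell.

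**Figure D2:**
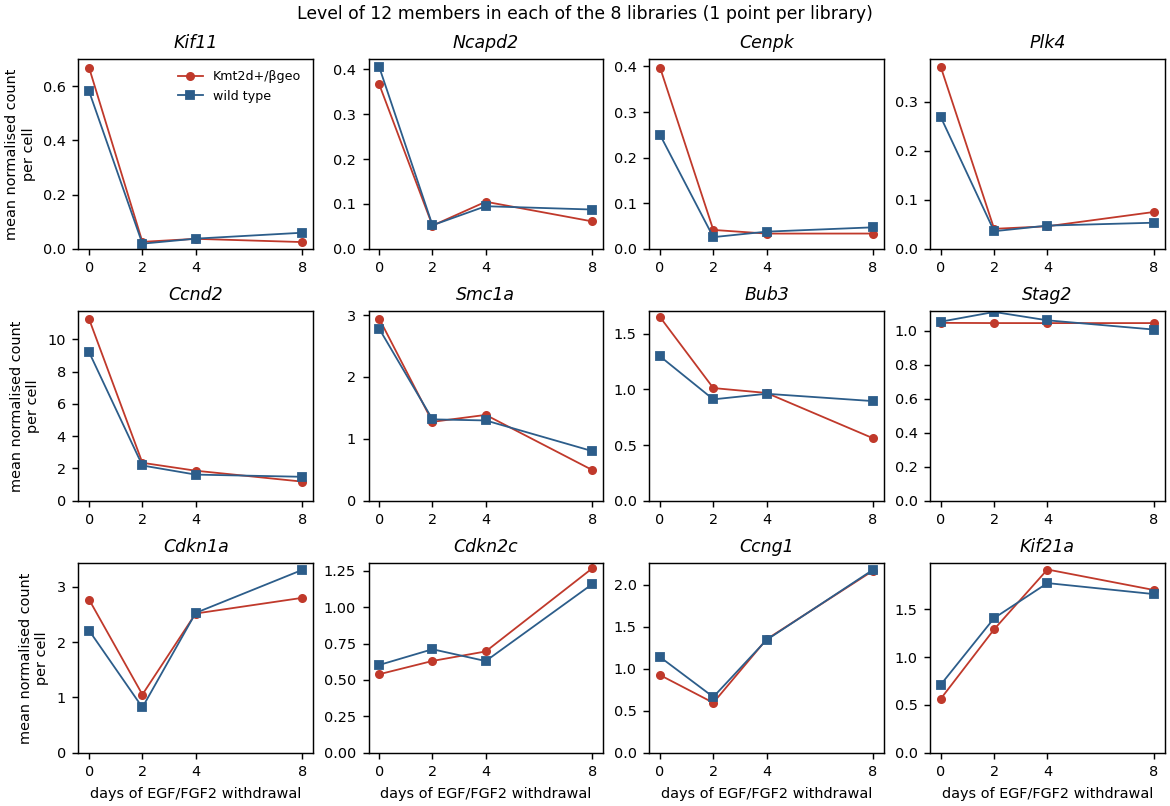
Mean normalised count per cell (y axis, from 0) against days of EGF/FGF2 withdrawal (x axis) for 12 members, 1 point per library, circles for Kmt2d+/βgeo and squares for wild type. The top row and Ccnd2 are lower at day 2 than at day 0 and stay low, Stag2 stays level, Cdkn1a and Ccng1 are lowest at day 2, and Cdkn2c, Ccng1 and Kif21a stand higher at day 8 than at day 0.

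The next comparisons ask how the members differed after growth factors were withdrawn. A member was compared where its mean normalised count (UMIs per cell after all cells were scaled to the same total) reached 0.1 in either library, and counted as lower or higher where the log2 ratio of means was at least 1 in size (2-fold). The 3 comparisons within a genotype share its day 0 library, so they are not independent of each other.

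At day 2 the largest differences were in the spindle, condensin and kinetochore genes and in Ccnd2. In the Kmt2d+/βgeo libraries 20 of 96 members compared were lower and 1 was higher, where over all genes 6.74% were lower and 10.7% higher. In the wild type libraries 16 of 93 were lower and 0 higher, with 5.56% of all genes lower and 8.08% higher. All of the 16 were also lower in Kmt2d+/βgeo (17.2% of the 93 compared in both, beside 4.44% of all genes). These counts depend on low members: with a minimum mean of 0.5 the lower ones were 5 of 42 and 4 of 41 (8.08% and 6.30% of all genes), and by the difference of mean log2 values 1 of 96 and 1 of 93 (0.707% and 0.430%). At the minimum of 0.1 the 16 were Kif11, Kif18a, Cenps, Cenpk, Cenpp, Plk4, Ncapd2, Ncapd3, Ncapg2, Smc1a, Ccnd2, Cdc25a, Cdkn1a, Anapc15, Cep135 and Cep295. Among them Kif11, Kif18a, Cenps, Cenpk, Plk4 and Cdc25a reached this minimum only through the day 0 libraries, in which they were higher. The 4 that passed in Kmt2d+/βgeo alone were Cenpc1, Cenpj, Cep164 and Kif21b, and in wild type their log2 ratios were -0.91, -0.93, -0.88 and -0.55. The difference between genotypes was not tested.

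Kif11 (chromosome 19, 37376403 to 37421859 on GRCm38) had the lowest ratio. Such a mean cannot tell fewer dividing cells from less RNA per cell. Its mean normalised count was 0.668 at day 0 and 0.0255 at day 2 in Kmt2d+/βgeo and 0.581 and 0.0188 in wild type. The log2 ratios were -4.71 and -4.95, or 26.2-fold and 30.9-fold lower. The ratio of UMIs summed over cells, which gives deep cells more weight, was -4.47 (95% interval -4.70 to -4.25) and -4.92 (-5.24 to -4.62), with 173 and 92 UMIs left at day 2. The Kmt2d+/βgeo interval does not cover the ratio of means. The other mitotic kinesin, Kif18a, went from 0.330 to 0.0456 and from 0.279 to 0.0546 (log2 ratios -2.85 and -2.35). At day 8 Kif11 had log2 ratios of -4.76 and -3.29 against day 0, with 39 and 160 UMIs, in a comparison where the Kmt2d+/βgeo library was the shallowest.

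Among the centromere and kinetochore genes, 5 of 7 compared were lower at day 2 in Kmt2d+/βgeo and 3 of 7 in wild type. Cenpj, a centriole protein placed here by its symbol, is 1 of the 5. Over all genes 6.74% and 5.56% were lower, also for the condensin counts below. With a minimum mean of 0.5, only 1 centromere and kinetochore gene and 1 condensin gene were compared at day 2. Both were short of 2-fold in each genotype. Cenps, a histone-fold protein, went from 0.198 to 0.0154 and from 0.147 to 0.0137 (log2 ratios -3.69 and -3.42), and Cenpk from 0.398 to 0.0413 and from 0.25 to 0.0255 (-3.27 and -3.29). Cenpp had log2 ratios of -2.23 and -2.28. Cenpc1 and Cenpj passed in Kmt2d+/βgeo alone, as given above, and a further pair stayed short of 2-fold in both genotypes. Cenpt, which anchors the outer kinetochore, stood at 0.178 and 0.198 at day 0 and at 0.189 and 0.189 at day 2, and Cenpv at 0.871 and 1.11 at day 0 and 0.577 and 0.616 at day 2. In condensin, 3 of 4 members were lower in each genotype, with log2 ratios of -3.59 and -3.23 for Ncapg2, -2.83 and -2.95 for Ncapd2 and -1.61 and -1.3 for Ncapd3. The fourth, Ncaph2, had -0.85 and -0.97. Plk4 went from 0.370 to 0.0407 and from 0.268 to 0.0358, with log2 ratios of -3.19 and -2.91. Bub3 went only from 1.65 to 1.01 and from 1.3 to 0.911, short of 2-fold in both genotypes.

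**Figure D3:**
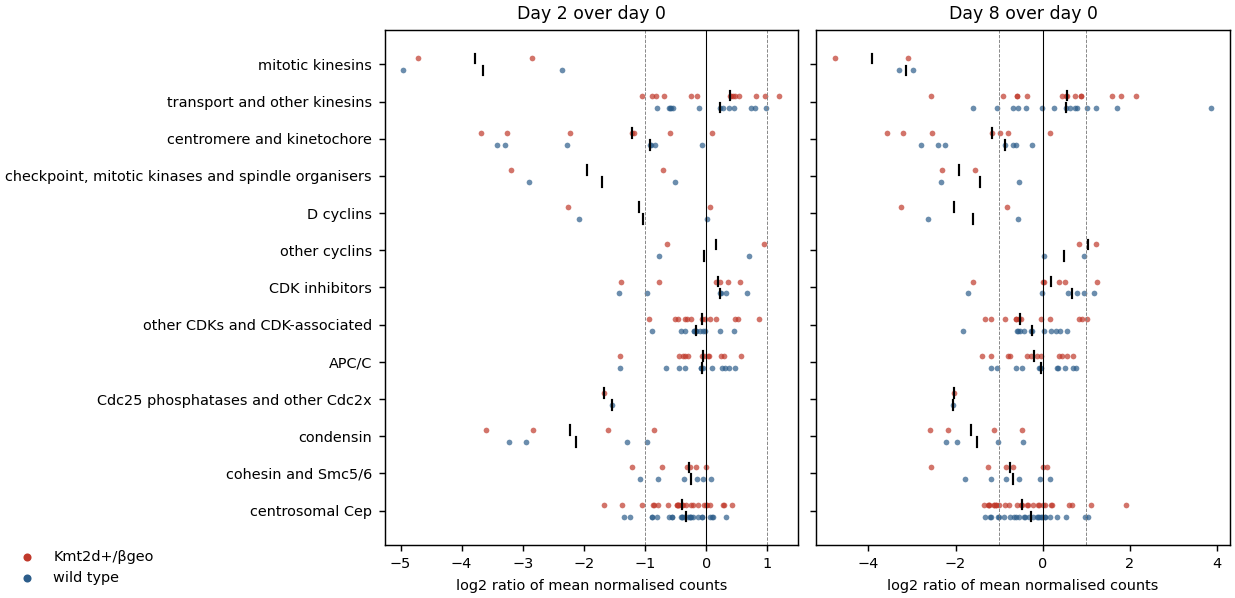
Log2 ratio of mean normalised counts (x axis) at day 2 (left) and day 8 (right) over day 0 for every member compared, by role (y axis), 1 point per member in Kmt2d+/βgeo (upper row of each role) and wild type (lower row). Black ticks are medians and dashed lines mark 2-fold. Mitotic kinesins and condensin lie left of 0 at both days, and transport kinesins have their medians right of 0.

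Cohesin differed from condensin. Of 6 cohesin and Smc5/6 genes, Smc1a alone was past 2-fold at day 2, with means of 2.94 and 2.78 at day 0 and 1.27 and 1.32 at day 2 (log2 ratios -1.21 and -1.08). Stag2, a cohesin subunit needed outside mitosis too, had means from 1.01 to 1.11 over all 8 libraries. Smc3 had log2 ratios of -0.26 and -0.15. The 12 APC/C subunits had medians close to 0 at day 2 (-0.05 and -0.07, and 0.03 and 0.10 among those with a mean of at least 0.5), and Anapc15 was the 1 lower in each genotype (-1.41 and -1.41). Anapc5 was lower at each later day, from 3.19 and 3.14 at day 0 to 2.35 and 1.99, 1.76 and 1.67, and 1.39 and 1.38 at days 2, 4 and 8. Of the centrosomal Cep genes, 3 of 25 compared were lower at day 2 in Kmt2d+/βgeo and 2 of 24 in wild type, where 6.74% and 5.56% of all genes were lower. Those in both were Cep135 and Cep295, of which Cep135 builds the centriole.

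Ccnd2 (chromosome 6, 127125162 to 127152193) was the member with the most UMIs at day 0. Its mean normalised counts at days 0, 2, 4 and 8 were 11.2, 2.35, 1.86 and 1.18 in Kmt2d+/βgeo and 9.19, 2.18, 1.62 and 1.48 in wild type. The day 0 libraries were both above every later library. At day 2 the log2 ratios were -2.26 and -2.07 (4.79-fold and 4.21-fold lower). The ratios of summed UMIs were smaller in size, at -2.01 (95% interval -2.04 to -1.98) and -1.96 (-1.99 to -1.93), so that cell weighting moved this value by more than its counting error. At day 8 the log2 ratios of means reached -3.25 and -2.63. The second D cyclin measured, Ccnd3, had log2 ratios of 0.06 and 0.01 at day 2 and stood at -0.82 and -0.56 at day 8. Cdc25a went from 0.237 and 0.252 to 0.0746 and 0.0865 at day 2 (log2 ratios -1.67 and -1.54).

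The CDK inhibitors differed among themselves. Cdkn1a (p21; chromosome 17, 29090976 to 29100727), which p53 and growth signals are known to induce, had means of 2.77, 1.05, 2.52 and 2.80 at days 0, 2, 4 and 8 in Kmt2d+/βgeo and of 2.21, 0.819, 2.53 and 3.30 in wild type. It was thus lower at day 2 in both genotypes (log2 ratios -1.40 and -1.43) and near or above its day 0 level at day 8 (0.02 and 0.58). Ccng1, a G cyclin and known p53 target, was also at its lowest at day 2 but short of 2-fold there (-0.64 and -0.78), with means of 0.925, 0.595, 1.35 and 2.17 and of 1.14, 0.664, 1.34 and 2.18, and log2 ratios of 1.23 and 0.94 at day 8. Cdkn1b (p27), an inhibitor of cyclin E and Cdk2, stood at 0.599, 0.876, 0.772 and 0.858 and at 0.472, 0.750, 0.699 and 0.810, short of 2-fold on every day. Cdkn2c (p18) had log2 ratios of 0.23 and 0.24 at day 2 and of 1.23 and 0.94 at day 8, although it was among the 8 members with the highest R2 at day 0. Cdkn2a, the locus of p16 and p19, whose transcripts 3′ tags do not separate, had means of 3.07, 3.43, 4.41 and 3.99 in Kmt2d+/βgeo and of 2.70, 3.39, 4.38 and 6.12 in wild type. Its log2 ratios at day 8 were 0.38 and 1.18. Of the genes named after inhibitors for other reasons, Cdkn2aip had log2 ratios between -0.03 and 0.35 over all days, and Cdkn2aipnl went from 0.422 and 0.411 at day 0 to 0.140 and 0.126 at day 8.

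**Figure D4:**
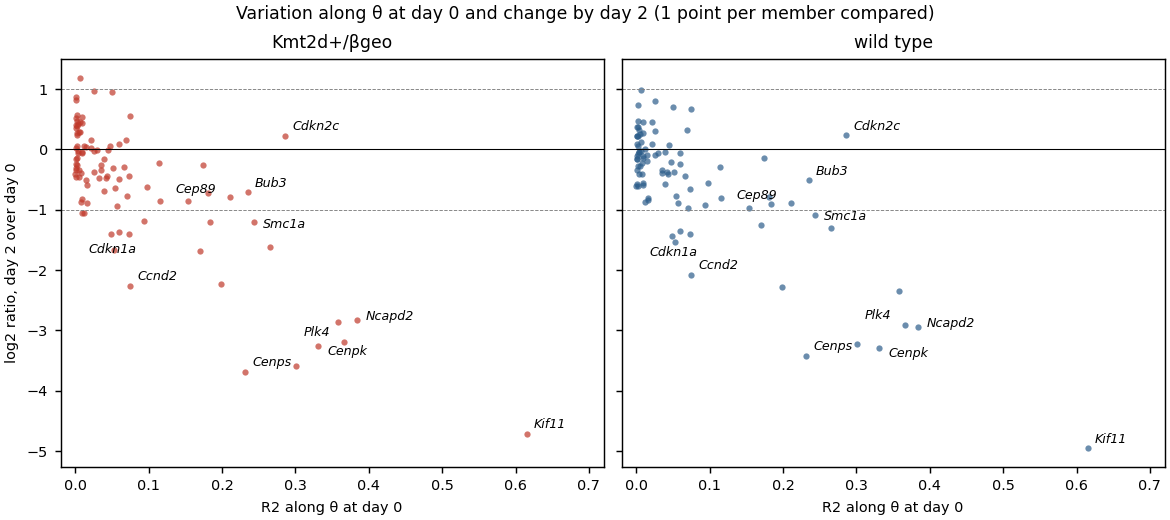
Log2 ratio of day 2 over day 0 (y axis) against R2 along θ in day 0 cells (x axis), 1 point per member compared, in Kmt2d+/βgeo (left) and wild type (right). Dashed lines mark 2-fold. Members with R2 above 0.3 all lie below -2, Cdkn2c and Bub3 lie above -1 at R2 above 0.2, and Ccnd2 lies below -2 at an R2 below 0.1.

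The members that varied most along θ at day 0 were mostly those that were lower at day 2. Of the 12 members with R2 of at least 0.2, 9 were lower at day 2 in each genotype, with median log2 ratios of -2.84 and -2.63. Of the members with R2 from 0.05 to below 0.2, 8 of 25 compared in Kmt2d+/βgeo and 6 of 25 in wild type were lower (medians -0.73 and -0.79). Of the members with R2 from 0.01 to below 0.05, 2 of 22 and 1 of 21 were lower (medians -0.30 and -0.19). Of the members with R2 below 0.01, 1 of 37 and 0 of 35 were lower (medians 0.03 and -0.05). Over all genes, whatever their R2, 6.74% and 5.56% were lower. Both measures use the day 0 cells, so this is a description of shared values. The members with R2 of at least 0.2 that stayed short of 2-fold in both genotypes were Cdkn2c, Bub3 and Cep89. Of the members lower in both genotypes, Ccnd2 (R2 0.075), Anapc15 (0.073), Cep135 (0.060), Cdc25a (0.053) and Cdkn1a (0.048) had R2 below 0.1 in the pooled cells.

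At day 4 the counts were 16 of 97 members lower and 6 higher in Kmt2d+/βgeo, with 6.61% and 14.8% over all genes. In wild type they were 14 of 95 lower and 4 higher, with 6.6% and 11.9% over all genes. The members lower in both genotypes numbered 13 (13.7%, beside 4.67% of all genes), and all but Cdkn2aipnl were among the 16 lower in both at day 2. At days 4 and 8, Kif11, Kif18a and Cdc25a again reached the minimum of 0.1 only through the day 0 libraries. With a minimum mean of 0.5 the lower members were 4 of 45 (8.89%) and 3 of 45 (6.67%), beside 8.08% and 8.18% of all genes. Those higher in both were 4 (4.21%, beside 10.2% of all genes), the kinesins Kif1a, Kif1c and Kif21a and the centrosomal gene Cep85l. Cep85l reached the minimum of 0.1 only through the day 4 libraries, in which it was higher. At day 8 the counts were 29 of 97 lower and 8 higher in Kmt2d+/βgeo (13.9% and 19.0% over all genes) and 23 of 97 lower and 6 higher in wild type (10.9% and 16.3%). Those in both genotypes were 19 lower and 3 higher of 96 compared in both (19.8% and 3.13%), beside 8.02% and 13.2% of all genes. With a minimum mean of 0.5 the lower members at day 8 were 9 of 43 and 9 of 44 (20.9% and 20.5%), beside 17.0% and 13.6% of all genes, and by the difference of mean log2 values 4 and 3 of 97. Over all genes the median log2 ratio was itself 0.17 at day 4 and 0.11 at day 8 in Kmt2d+/βgeo, and between 0.01 and 0.09 in the other comparisons with day 0. The members' medians were -0.32, -0.14 and -0.50 at days 2, 4 and 8 in Kmt2d+/βgeo and -0.29, -0.12 and -0.31 in wild type, and that of Kmt2d+/βgeo at day 4 turned to 0.02 with a minimum mean of 0.5.

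Some kinesins of intracellular transport were higher after withdrawal. Their share was below that of all genes at day 2 and near it at day 8 in Kmt2d+/βgeo. Among the transport and other kinesins compared, 1 of 14, 5 of 15 and 3 of 14 were higher at days 2, 4 and 8 in Kmt2d+/βgeo, where 10.7%, 14.8% and 19.0% of all genes were. In wild type 0 of 13, 3 of 14 and 4 of 15 were higher, where 8.08%, 11.9% and 16.3% of all genes were. Kif1c (chromosome 11, 70700548 to 70731964), which carries vesicles and mRNA, had means of 0.251, 0.347, 0.864 and 1.1 in Kmt2d+/βgeo and of 0.254, 0.422, 0.812 and 0.832 in wild type, with log2 ratios of 2.13 and 1.71 at day 8. Kif21a, a motor that restrains microtubule growth, had means of 0.566, 1.29, 1.92 and 1.70 and of 0.714, 1.41, 1.78 and 1.66, so that it was about as high at day 4 as at day 8. Kif1a and Kif1b, carriers of synaptic vesicle precursors and mitochondria, were highest at day 4, with log2 ratios of 1.5 and 1.19 for Kif1a and of 1.18 and 0.74 for Kif1b. Not every transport kinesin was higher. Kif5b, the conventional kinesin heavy chain, had log2 ratios of -0.89 and -0.81 at day 2, and Kif21b, the close relative of Kif21a, of -2.55 and -1.61 at day 8, with 72 and 221 UMIs. Kif9, chosen after its values were seen, had means of 0.00964 and 0.0083 at day 0 and of 0.0748 and 0.120 at day 8. This motor of motile cilia passed the minimum only through the wild type day 8 library, where it is 1 of the 4 counted as higher. The multiciliated ependyma genes listed for this purpose are not analysed here.

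Cdk2ap1, a CDK2-associated protein, had means of 7.85 and 8.07 at day 0 and of 3.44 and 2.26 at day 8 (log2 ratios -1.19 and -1.83). Cdk5rap2, a centrosomal protein, was short of 2-fold on every day. Cep85l went from 0.0639 and 0.0649 at day 0 to 0.239 and 0.134 at day 8 (1.90 and 1.05), and Cep19, which acts at cilia, from 0.247 and 0.238 to 0.530 and 0.465 (1.1 and 0.96). Cep85l reached the minimum of 0.1 only through the later libraries, in which it was higher. Smc1a reached log2 ratios of -2.57 and -1.79 at day 8.

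Division genes outside these families were also lower in part. Of 38 genes on a list of other division genes in the matrix, 19 of 37 compared were lower at day 2 in Kmt2d+/βgeo and 18 of 36 in wild type (all genes 6.74% and 5.56%), and 20 of 37 and 15 of 36 at day 8 (13.9% and 10.9%). From 0 to 3 of the list were higher in any of these comparisons. Top2a went from 3.50 and 3.30 at day 0 to 0.108 and 0.0973 at day 2, Smc2 from 2.26 and 1.79 to 0.318 and 0.321, and Smc4 from 2.00 and 1.74 to 0.595 and 0.523. Others with high levels were short of 2-fold at day 2, among them Zwint, a kinetochore protein (1.78 and 1.70 before, 1.69 and 1.49 after), and Wapl, which releases cohesin (1.06 and 1.02 before, 0.916 and 0.878 after).

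The summed level of the 16 genes of the mitotic set at days 0, 2, 4 and 8 was 7.43, 2.94, 3.55 and 3.07 in Kmt2d+/βgeo and 6.78, 2.89, 3.51 and 3.52 in wild type. At day 2 Bub3 and Plk4 together made up 1.05 and 0.946 of these sums, and Cenpv (R2 0.016) made up 0.577 and 0.616. The mitotic kinesins together went from 0.998 and 0.86 at day 0 to 0.0711 and 0.0734 at day 2. The sums, and the shares of all UMIs of the set given below, are therefore weighted towards abundant members. In cells thinned to 3000 UMIs each, cells with a Top2a UMI made up 37.9% and 34.5% of the day 0 libraries and held 86.3% and 84.1% of Kif11 UMIs. Thinning left out 757 of 2965 cells of the Kmt2d+/βgeo day 8 library and at most 23 of any other. From day 2 to day 8 cells with a Top2a UMI made up 0.906% (in that library) to 2.13% of the thinned cells and held 29.4% to 56.8% of its 17 to 55 Kif11 UMIs. The same cells held a smaller share of the other genes, 7.45% to 21.4% of the Ncapd2 UMIs, 4.55% to 32.4% of the Kif18a UMIs and 2.45% to 5.21% of all UMIs of the mitotic set, which had been 62.3% and 58.3% at day 0. The widest exact binomial interval among the Kif11 shares, in the Kmt2d+/βgeo day 8 library, ran from 10.3% to 56.0%. Without thinning the cells with a Top2a UMI were 1.15% to 5.56% of a library from day 2 on and held 35.9% to 67.8% of Kif11 UMIs. The part of free RNA in these shares was not tested.

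**Figure D5:**
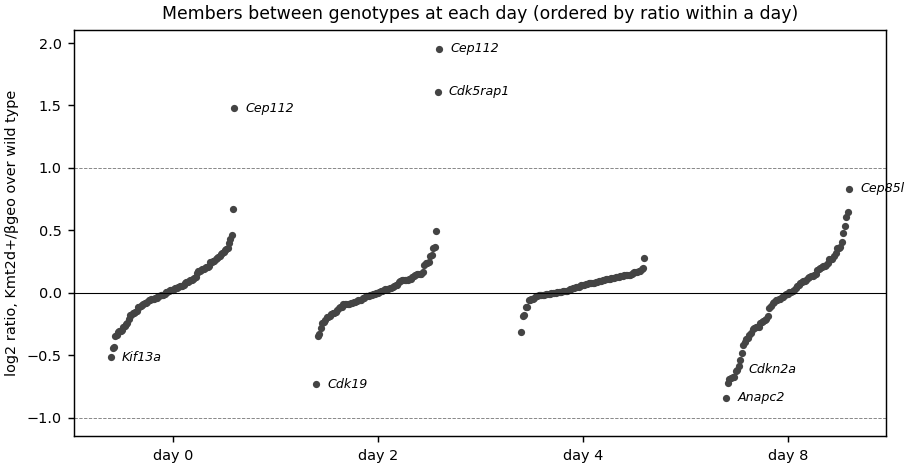
Log2 ratio of Kmt2d+/βgeo over wild type (y axis) for every member compared at each day (x axis), in order of ratio within a day, with dashed lines at 2-fold. The day 4 points lie between -0.31 and 0.28, and the points past 2-fold are Cep112 at days 0 and 2 and Cdk5rap1 at day 2.

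Between genotypes few members passed 2-fold. At day 0, 0 of 93 members compared were lower in Kmt2d+/βgeo and 1 was higher (0.871% and 0.674% over all genes). At day 2 the counts were 0 and 2 of 83 (1.15% and 1.68%), at day 4 they were 0 and 0 of 87 (0% and 0%), and at day 8 they were 0 and 0 of 81 (2.81% and 2.06%). The member that passed at day 0 was Cep112 (chromosome 11, 108425192 to 108860615), a centrosomal protein. Its mean normalised counts at days 0, 2, 4 and 8 were 0.161, 0.116, 0.0272 and 0.0767 in Kmt2d+/βgeo and 0.0578, 0.0300, 0.0334 and 0.0346 in wild type. Cep112 reached the minimum of 0.1 only through the Kmt2d+/βgeo library, in which it was higher. The log2 ratios were 1.48 at day 0 (95% interval of the ratio of summed UMIs 1.28 to 1.63) and 1.95 at day 2 (1.70 to 2.31). At day 8 the ratio was 1.15 (0.63 to 1.46), below the minimum level, and at day 4, where the libraries were nearly the same, it was -0.30 (-0.71 to 0.13). Cdk5rap1, an enzyme of mitochondrial tRNA modification named for its binding to a Cdk5 activator, passed at day 2, with means of 0.128 and 0.0420 (log2 ratio 1.61, interval on summed UMIs 1.37 to 1.89), and likewise reached the minimum only through the Kmt2d+/βgeo library. Its ratio was 1.43 at day 0, below the minimum level, 0.35 at day 4 and 0.29 at day 8. Neither gene shares exons with another gene on its strand in GENCODE M21.

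No member of the mitotic set passed 2-fold between genotypes. Its median log2 ratio at day 0 was 0.24 (0.05 with a minimum mean of 0.5), beside 0.02 for all members and -0.04 for all genes. At day 0, 11 of 15 members of the mitotic set and 52 of 93 members in all had ratios above 0, as did 3169 of 7117 genes. Log2 ratios were 0.20 (Kif11), 0.24 (Kif18a), 0.35 (Bub3), 0.47 (Plk4) and 0.67 (Cenpk). Ncapd2 stood at -0.14 and Ccnd2 at 0.29. All of these are short of 2-fold, and without replicate libraries their size cannot be set against the spread between cultures. The SD of the ratios over members was 0.27, 0.33, 0.09 and 0.34 at days 0, 2, 4 and 8 (all genes 0.34, 0.38, 0.11 and 0.49). On day 8 Anapc2 had the lowest ratio (-0.84), followed by Cep89 (-0.73), Smc1a (-0.69), Anapc7 (-0.68), Kif9 (-0.68) and Bub3 (-0.67), and the highest those of Cep85l (0.83) and Kif16b (0.65). Kif11 was below the minimum level in both day 8 libraries, at 0.0247 and 0.0592. The Kmt2d+/βgeo day 8 library was the shallowest and had the lower astrocyte sum of that day, and their part in these ratios was not tested.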

How the data were processed

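Per the study's methods, the authors quantified reads with alevin (Salmon 1.3.0) on a GRCm38 index. They removed cells with few genes, outliers in depth, mitochondrial share or doublet score, and rare and mitochondrial genes. The deposited matrix holds log2(value + 1) of counts scaled per cell, and 2 to the power of each value minus 1 summed to 8707.1 in every cell. The deposited estimated counts per cell (total UMIs) were made by the authors from the reads with alevin (Salmon 1.3.0) before deposit. They were not used to return values to UMIs. Instead, each cell's values were divided by its most common nonzero normalised value, taken as 1 UMI. Of the results, 86.8% came out within 0.01 of a whole number. UMI counts, their intervals and the thinning rest on this inferred unit. In the Kmt2d+/βgeo day 0 library the median was 11230 UMIs on the matrix genes, where median total UMIs were 23219. Doublets were removed by the authors, and no caller was run here.

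Each cell's library came from the deposited cell table. Levels are means over a library's cells, and ratios are log2 ratios of those means, for genes with a mean of at least 0.1 in either library. Exact intervals (95%) rest on summed UMIs. Because there was 1 library per group, no p-value was computed. Cells were not treated as replicates. The day 0 cell-cycle position used 2 components and a loess span of 0.3. The scripts were checked on simulated data. Alternatives were the mean of log2 values, other minimums and thresholds, median centring, thinning to 3000 UMIs, and other spans and embeddings. Analyses used Python 3.11.15 with numpy 2.4.6, pandas 2.3.3, scipy 1.17.1 and matplotlib 3.10.9.

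The members, the roles and the gene lists were chosen with earlier results of these data known. Genes were named by rule: the members with the highest means in each role, the lowest and highest day 8 ratios, those past the threshold between genotypes, the 8 with the highest R2, the D cyclins and CDK inhibitors, and the most abundant other division genes. Other members are named to account for a count or for contrast, and were chosen after their values were seen.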

Additional observations from a re-analysis of the deposited data

Results flagged for a closer look

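Among the members named by rule, 5 cases had log2 ratios against day 0 of opposite signs in the 2 genotypes. Their counting intervals lay on either side of 0, and the signs were the same after thinning. The other members were not searched, and no share over all genes was computed. The difference was not tested in any of them, and each rests on 1 library per group. Cdkn1a stood at -0.14 in Kmt2d+/βgeo and 0.19 in wild type at day 4. Its day 4 means were nearly the same (2.52 and 2.53, in libraries that hardly differ), so these signs restate the day 0 means of 2.77 and 2.21. Cenpv stood at 0.16 and -0.25 at day 8, and Cdk16, a kinase of neurons and testis, at 0.17 and -0.26. Cep170, a centriolar protein, stood at 0.28 and -0.0687 at day 2, and Cep350 at 0.21 and -0.0926 at day 8. All 5 are short of 2-fold in both genotypes.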

How the results depend on the processing

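No paired analysis was possible because the groups compared share fewer than 2 replicate numbers: the sample numbers in the titles run with the genotype, and each genotype and day had 1 library. A fit over all libraries with day and genotype as additive terms, which takes days or genotypes as repeats of each other, was not run. No replicate was left out. Counts are given in the order Kmt2d+/βgeo days 2, 4 and 8, then wild type days 2, 4 and 8, for the comparisons with day 0.

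With the difference of mean log2 values, which is smaller than the log2 ratio of means for low genes by construction, the lower members numbered 1, 1 and 4, then 1, 1 and 3 (1.04%, 1.03%, 4.12%, 1.08%, 1.05% and 3.09% of members, beside 0.707%, 0.952%, 2.49%, 0.430%, 0.970% and 1.65% of all genes). The higher ones were 0 on every day in Kmt2d+/βgeo and 0 at days 4 and 8 in wild type, and between genotypes 0 were higher at days 0 and 2. With a minimum mean of 0.5, which compares fewer genes, the lower members numbered 5 of 42, 4 of 45 and 9 of 43, then 4 of 41, 3 of 45 and 9 of 44, beside 8.08%, 8.08%, 17.0%, 6.30%, 8.18% and 13.6% of all genes. Of the role medians 96 stayed within 0.25 under this minimum, 39 moved further, and that of the centromere and kinetochore genes at day 8 in Kmt2d+/βgeo reversed from -1.16 to 0.16, with 1 gene left. Against day 0, sign also turned for APC/C at day 8 (-0.21 to 0.41 and -0.05 to 0.35), for other cyclins at day 2 in Kmt2d+/βgeo (0.16 to -0.64), and for the APC/C at day 2 and all members at day 4 as given above. Between genotypes it turned for several roles. Among them were centromere and kinetochore at day 0 (0.08 to -0.34) and day 8 (-0.28 to 0.06). Others were condensin (0.09 to -0.10), centrosomal Cep (0.04 to -0.14) and all members (0.02 to -0.04) at day 0. Under this minimum the higher members were 5 at day 8 in Kmt2d+/βgeo, and between genotypes 0 were higher at days 0 and 2, so that Cep112 and Cdk5rap1 were not compared. With no minimum mean, 4 members were higher at day 2 in Kmt2d+/βgeo, and 2 at day 2 and 7 at day 4 in wild type (all genes 11.98%, 9.80% and 13.7%). Between genotypes 2 were then higher at day 0, and at day 8 1 was lower and 1 higher (all genes 1.08%, 2.74% and 2.33%). After thinning, 2 members were higher at day 2 in Kmt2d+/βgeo and 1 in wild type (all genes 11.0% and 8.40%). With a threshold of 0.58, the lower members numbered 34, 25 and 46, then 32, 26 and 35 (all genes 16.3%, 14.4%, 24.8%, 14.9%, 15.0% and 22.0%), and the higher ones 5, 13 and 17, then 5, 8 and 16 (all genes 22.3%, 28.6%, 31.8%, 17.4%, 22.9% and 27.5%). Between genotypes this threshold gave 2 higher at day 0, 1 lower at day 2, and 9 lower and 3 higher at day 8 (all genes 2.50%, 3.97%, 10.5% and 7.56%). Centring on the median of all genes left all 20 counts within 1.5 times the main count. The count of members with R2 of at least 0.05 was 38 with members in the embedding, 35 in the Kmt2d+/βgeo library alone and 41 in the wild type library alone. Of the 38 peak positions, 5 moved with a span of 0.5. Of the log2 ratios of members named by rule, 374 moved by no more than their counting error after thinning, and 91 moved further. With the difference of mean log2 values 122 moved by no more than that, and 343 moved further. Thinning left all 10 counts of lower members within 1.5 times the main count, and that of Kmt2d+/βgeo at day 8 went from 29 to 31. This library was the shallowest, and low members rest on few UMIs there.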
